A study of Mus musculus with 12 samples.

Results

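Glucose sensing and insulin processing in the beta cell were followed through 9 genes: Slc2a2, G6pc2 and Abcc8 of glucose sensing, Slc30a8 of zinc loading, Pcsk1, Pcsk2 and Cpe of hormone processing, and the incretin receptors Glp1r and Gipr. They were found by taking the RefSeq accession of each probe to a gene symbol, which gave all 9 genes at least 1 probe, 16 probes of the 41174 on the array and 9 of the 17305 genes with a named probe. The series compared pancreatic islet RNA of 4 genotypes on 12 Agilent mouse arrays in 1 colour, with 3 arrays for each genotype. WT islets were set beside islets without PPARγ2, the isoform of the nuclear receptor PPARγ that is deleted in the whole body (PPARγ2KO), islets of leptin-deficient ob/ob mice, and islets of POKO mice, which carry both defects. All mice were on the mixed C57BL/6 x Sv129 background and on chow, and the labels name no treatment of the islets. The labels give an age of 4 weeks, while the study's text makes the mice, all female, a week older. Each array held islets pooled from several mice, picked by hand after collagenase digestion and cultured overnight. Nothing in the labels says how the pools of a genotype differ, so the p-values measure the spread between these arrays only.

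Beta cells take up glucose through a transporter in the membrane (GLUT2, the product of Slc2a2, in mice), phosphorylate it and burn it, and the ATP formed closes the KATP channel, whose regulatory subunit SUR1 is encoded by Abcc8. The membrane then depolarises, calcium enters, and insulin granules fuse. Inside those granules proinsulin is cut by the convertases PC1/3 (Pcsk1) and PC2 (Pcsk2), carboxypeptidase E (Cpe) trims the cut ends, and zinc brought in by ZnT8 (Slc30a8) packs insulin into crystals. The receptors for GLP-1 (Glp1r) and GIP (Gipr) raise cAMP and thereby amplify secretion after a meal.

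Signals are given below as normalized log2 values of the Agilent processed signal, by the brightest probe of each gene. Levels of different genes are not compared, because probes differ in their response. All 9 brightest probes were well above background on all 12 arrays and no spot was saturated. The median processed signal of an array ran from 20.9 to 27.0 in WT, 23.0 to 30.4 in PPARγ2KO, 30.7 to 40.6 in ob/ob and 31.6 to 33.6 in POKO, and between 54.3% and 64.9% of the spots of an array were well above background. A gene is said to have risen or fallen where its adjusted p in limma, with Benjamini-Hochberg over all 41174 probes, was at most 0.05. Replicates with the same number lay on the same slide, 3 slides in all, whereas each genotype kept 1 position on every slide, so position and genotype cannot be told apart. In RNA from whole islets, fewer beta cells and less of a transcript per cell cannot be told apart either.

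Carboxypeptidase E and PC1/3 were the members of the group that rose in ob/ob islets. In ob/ob vs. WT 2 of the 9 genes passed the adjusted limit, Cpe and Pcsk1, both higher, while 11.1% of all probes passed it in either direction, 4.92% as higher and 6.14% as lower. At an unadjusted p under 0.05, Cpe, Pcsk1, Pcsk2 and Abcc8 stood, 4 of the 9, beside 31.1% of all probes. The median log2 fold change of the 9 was 0.95, beside -0.08 over all probes, and 7 of the 9 were higher in ob/ob. No gene of the 9 passed the adjusted limit in any other comparison.

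**Figure D1:**
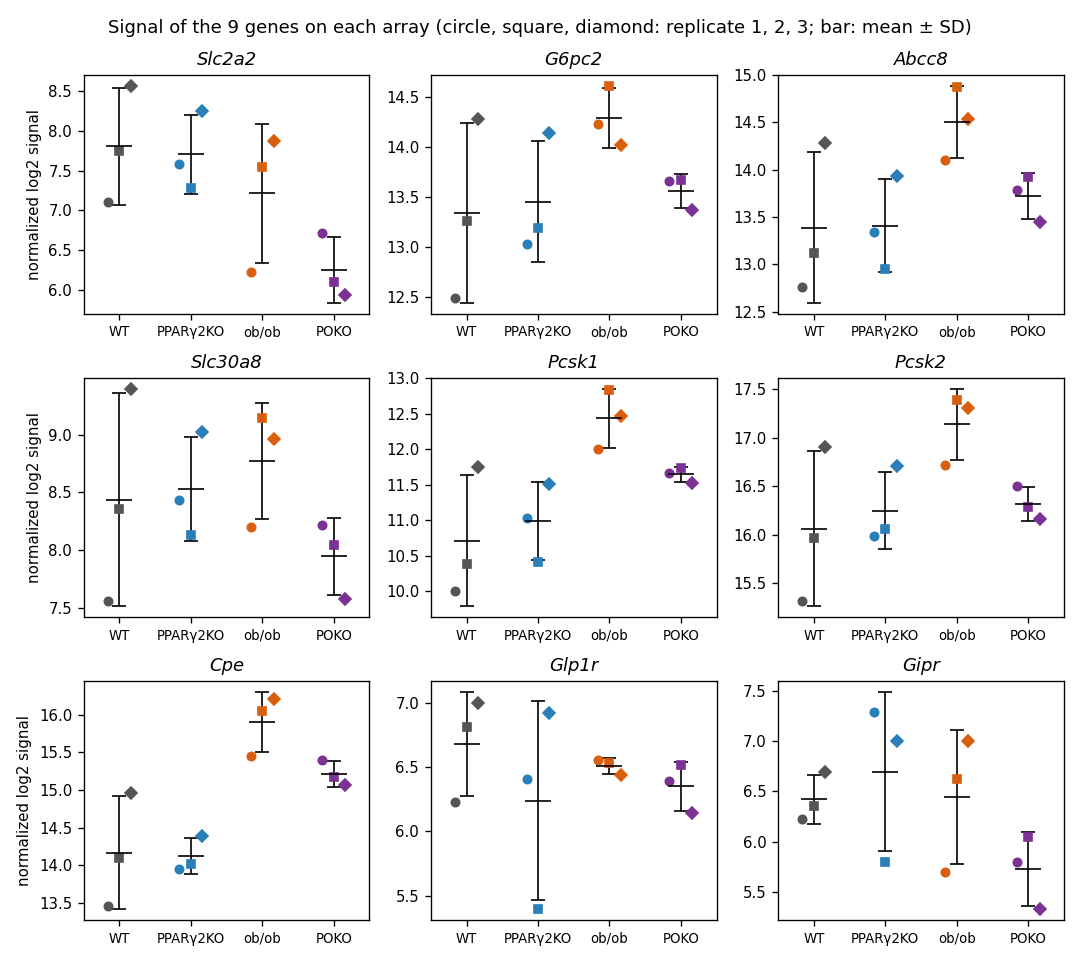
Normalized log2 signal (vertical axis) of each of the 9 genes on the 12 arrays, by genotype (horizontal axis), with replicates 1, 2 and 3 as circle, square and diamond and the mean ± SD of the 3 arrays as a bar. Cpe and Pcsk1 lie higher on all 3 ob/ob arrays than on any WT array, Slc2a2 lies lower on all 3 POKO arrays than on any WT array, and the diamond of WT replicate 3 is the highest WT value in each panel.

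Cpe removes the basic residues that the convertases leave on proinsulin. Its signal was 13.46, 14.09 and 14.96 in WT replicates 1, 2 and 3, and 13.95, 14.02 and 14.39 in PPARγ2KO. It was 15.46, 16.06 and 16.21 in ob/ob and 15.40, 15.18 and 15.07 in POKO. Every array of the obese genotypes thus lay above every array of the lean ones, and the PPARγ2KO arrays lay inside the WT range. Cpe was 3.33-fold higher in ob/ob than in WT (log2 fold change 1.74, SE 0.35, adjusted p = 0.0259), and its other probe rose alike (1.70, SE 0.31, adjusted p = 0.0214). In POKO vs. WT its log2 fold change was 1.05 (SE 0.35, adjusted p = 0.182), in ob/ob vs. PPARγ2KO 1.78 (adjusted p = 0.0808) and in POKO vs. PPARγ2KO 1.09 (adjusted p = 0.321). Array by array on the same slide, ob/ob exceeded WT by 2.00, 1.96 and 1.25, and POKO exceeded WT by 1.95, 1.08 and 0.11.

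Pcsk1 encodes PC1/3, which opens the cleavage of proinsulin. Its signal was 10.003, 10.38 and 11.76 in WT and 11.04, 10.41 and 11.51 in PPARγ2KO. It was 12.001, 12.83 and 12.46 in ob/ob and 11.67, 11.74 and 11.53 in POKO. The ob/ob arrays lay above all others, and the POKO arrays lay above all but the highest WT array. Pcsk1 was 3.29-fold higher in ob/ob than in WT (log2 fold change 1.72, SE 0.44, adjusted p = 0.0407). Its other probe showed 1.16 (SE 0.42, adjusted p = 0.0982) and so did not pass. In POKO vs. WT the log2 fold change was 0.93 (SE 0.44, adjusted p = 0.338), and within the slides POKO minus WT was 1.67, 1.36 and -0.23.

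Both calls turned on single arrays. For Cpe the adjusted p rose to 0.0678 without WT replicate 1, 0.0935 without WT replicate 2, 0.0775 without ob/ob replicate 2 and 0.0775 without ob/ob replicate 3, and for Pcsk1 to 0.121, 0.132, 0.121 and 0.109 with the same arrays left out, while the fold changes stayed between 1.38 and 2.13 for Cpe and between 1.36 and 2.24 for Pcsk1. Pcsk1 also missed the limit without PPARγ2KO replicate 1 (adjusted p = 0.0535) and without POKO replicates 1, 2 or 3 (0.0629, 0.0630 and 0.0637). Fitted on the WT and ob/ob arrays alone, the adjusted p was 0.110 for Cpe and 0.137 for Pcsk1. In the other direction, without WT replicate 3 not only Cpe and Pcsk1 but also Pcsk2 (adjusted p = 0.0148), Abcc8 (0.0155) and G6pc2 (0.0290) passed as higher in ob/ob, and the same 5 genes passed when arrays were weighted by their fit.

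The start regions of 3 genes, Pcsk1, Pcsk2 and Slc2a2, are shown as RefSeq gives them on GRCm38.p6, because PPARγ2 is a receptor that binds DNA and Pcsk1 is a known target of cAMP signalling. The table of promoters used here held 5 of the 9 genes (Slc2a2, G6pc2, Glp1r, Pcsk1 and Pcsk2), and the 3 are those among the 5 with the widest changes against WT. Each sequence is the 250 bases before the annotated start on the plus strand, Pcsk1 at chr13:75089607-75089856, Pcsk2 at chr2:143545883-143546132 and Slc2a2 at chr3:28697653-28697902. Capitals mark matches of a few short motifs on either strand. The half-site of nuclear receptors was searched as AGGTCA. The cAMP response element, or CRE, was searched as TGACGTCA, and its half-site, which lies within it, as TGACG. An E-box of basic helix-loop-helix factors was searched with the letters CAGCTG.
Pcsk1: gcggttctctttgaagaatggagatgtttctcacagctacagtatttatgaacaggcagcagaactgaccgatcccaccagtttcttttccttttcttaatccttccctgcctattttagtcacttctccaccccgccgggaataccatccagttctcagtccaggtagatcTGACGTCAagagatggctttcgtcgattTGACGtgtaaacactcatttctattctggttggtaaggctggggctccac
Pcsk2: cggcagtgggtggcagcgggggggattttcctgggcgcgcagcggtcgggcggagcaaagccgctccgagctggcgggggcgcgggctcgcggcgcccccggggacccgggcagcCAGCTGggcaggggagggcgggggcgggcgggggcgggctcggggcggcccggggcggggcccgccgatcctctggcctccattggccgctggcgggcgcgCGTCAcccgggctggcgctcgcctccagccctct
Slc2a2: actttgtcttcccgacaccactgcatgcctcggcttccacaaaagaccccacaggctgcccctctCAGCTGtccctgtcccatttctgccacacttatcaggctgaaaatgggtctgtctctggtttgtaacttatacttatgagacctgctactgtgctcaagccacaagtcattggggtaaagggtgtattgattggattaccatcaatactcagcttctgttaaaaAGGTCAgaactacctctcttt

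The full CRE stood in the Pcsk1 window, beginning 78 bases before the start, with a further half-site at 50 bases, and 1.55% of the 32851 promoters in the table hold a full CRE in a window of this length. Pcsk2 held a CRE half-site, read as CGTCA, 34 bases before the start, a match found in 17.8% of all promoters, and an E-box at 135 bases (13% of promoters). In Slc2a2 a nuclear receptor half-site began 21 bases before the start, with 14% of all promoters holding one, and an E-box at 185 bases. G6pc2, whose sequence is not shown, also held this half-site, 124 bases before an annotated start. None of the 5 genes held the doubled half-site AGGTCANAGGTCA, which 0.0335% of promoters hold. The homeodomain core TAATTA, held by 4.84% of promoters, was not among these windows either. The same was true of the TATA box searched as TATAAA, which 12.4% of promoters hold. These are matches of letters, and the arrays carry no measurement of binding.

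Pcsk2 encodes PC2, which acts beside PC1/3 on proinsulin and on other islet prohormones. Its signal was 15.31, 15.97 and 16.91 in WT and 15.98, 16.06 and 16.71 in PPARγ2KO. It was 16.72, 17.39 and 17.31 in ob/ob and 16.50, 16.29 and 16.16 in POKO. The ob/ob arrays overlapped WT only through WT replicate 3, and the POKO arrays lay inside the WT range. Against WT, the log2 fold change of ob/ob was 1.08 (SE 0.38, adjusted p = 0.0885) and that of POKO 0.25 (SE 0.38, adjusted p = 0.758). Its other probe gave 0.48 (SE 0.42, adjusted p = 0.459) and -0.36 (SE 0.42, adjusted p = 0.693), so the probes pointed in opposite directions in POKO.

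The glucose transporter passed the adjusted limit in no comparison. Slc2a2, which encodes GLUT2, gave 7.10, 7.75 and 8.57 in WT and 7.59, 7.28 and 8.25 in PPARγ2KO. It gave 6.22, 7.55 and 7.87 in ob/ob and 6.72, 6.09 and 5.93 in POKO. All POKO arrays lay below all arrays of the lean genotypes, whereas ob/ob spanned from below to within the WT range. The log2 fold change in POKO vs. WT was -1.56 (SE 0.50, 95% interval -2.69 to -0.43, unadjusted p = 0.0120, adjusted p = 0.173), which does not pass over all probes. It was -0.62 (adjusted p = 0.301) with normexp background correction of the median signal and -1.47 (adjusted p = 0.0437) with array weights, the 1 alternative that passed. Its other probe gave -1.47 (SE 0.51, adjusted p = 0.203). In ob/ob vs. WT it was -0.60 (SE 0.50, adjusted p = 0.441) and in POKO vs. ob/ob -0.96 (SE 0.50, adjusted p = 0.575). Within the slides POKO minus ob/ob was 0.50, -1.46 and -1.94, so ob/ob replicate 1 had the lower signal on its slide.

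G6pc2 encodes a glucose-6-phosphatase of the islet. Its signal was 12.48, 13.25 and 14.27 in WT and 13.03, 13.18 and 14.14 in PPARγ2KO. It was 14.23, 14.61 and 14.02 in ob/ob and 13.65, 13.67 and 13.36 in POKO. WT replicate 3 lay among the ob/ob arrays, and POKO lay inside the WT range. Relative to WT this was a log2 fold change of 0.95 for ob/ob (SE 0.43, adjusted p = 0.172) and of 0.23 for POKO (SE 0.43, adjusted p = 0.821).

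Abcc8 encodes SUR1, on which sulfonylurea drugs act. Its signal was 12.76, 13.12 and 14.28 in WT and 13.34, 12.95 and 13.93 in PPARγ2KO. It was 14.11, 14.87 and 14.53 in ob/ob and 13.79, 13.92 and 13.45 in POKO. Again only WT replicate 3 reached the ob/ob range. Abcc8 showed a log2 fold change of 1.12 for ob/ob against WT (SE 0.40, 95% interval 0.22 to 2.01, adjusted p = 0.0934) and of 0.33 for POKO (SE 0.40, adjusted p = 0.697). Its other probe, well above background on 11 of the 12 arrays, gave 0.47 (SE 0.53, adjusted p = 0.570) and 0.04 (SE 0.53, adjusted p = 0.983).

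Slc30a8 encodes ZnT8, the zinc transporter of the insulin granule. Its signal was 7.56, 8.36 and 9.40 in WT and 8.44, 8.13 and 9.02 in PPARγ2KO. It was 8.20, 9.15 and 8.96 in ob/ob and 8.22, 8.04 and 7.58 in POKO. The WT arrays alone spanned the values of every other genotype. Its log2 fold change against WT was 0.33 for ob/ob (SE 0.46, adjusted p = 0.645) and -0.49 for POKO (SE 0.46, adjusted p = 0.612), and POKO differed from ob/ob by -0.82 (SE 0.46, 95% interval -1.85 to 0.20, adjusted p = 0.602).

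The incretin receptors were the members nearest to 0 in ob/ob vs. WT. Glp1r gave 6.23, 6.82 and 6.9999 in WT and 6.41, 5.39 and 6.92 in PPARγ2KO. It gave 6.56, 6.53 and 6.44 in ob/ob and 6.40, 6.51 and 6.14 in POKO. Apart from PPARγ2KO replicate 2, which was the lowest array, the genotypes overlapped. For ob/ob against WT the log2 fold change was -0.17 (SE 0.34, 95% interval -0.95 to 0.60, adjusted p = 0.758), and for POKO -0.33 (SE 0.34, 95% interval -1.11 to 0.44, adjusted p = 0.649). The intervals leave out a doubling in either genotype, and their lower ends are -0.95 in ob/ob and -1.11 in POKO on the log2 scale.

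Gipr gave 6.22, 6.35 and 6.69 in WT and 7.29, 5.80 and 6.999 in PPARγ2KO. It gave 5.70, 6.62 and 7.001 in ob/ob and 5.80, 6.05 and 5.33 in POKO. The 3 POKO arrays lay below the 3 WT arrays, while both single mutants spread on either side of WT. The log2 fold change in POKO vs. WT was -0.70 (SE 0.43, adjusted p = 0.462), and -0.62 (SE 0.28, adjusted p = 0.315) and -0.51 (SE 0.20, adjusted p = 0.257) by its other probes, the last of which was well above background on 4 of the 12 arrays. With normexp correction of the median signal the POKO value was -0.16 (adjusted p = 0.594). In ob/ob vs. WT it was 0.02 (SE 0.43, adjusted p = 0.983).

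**Figure D2:**
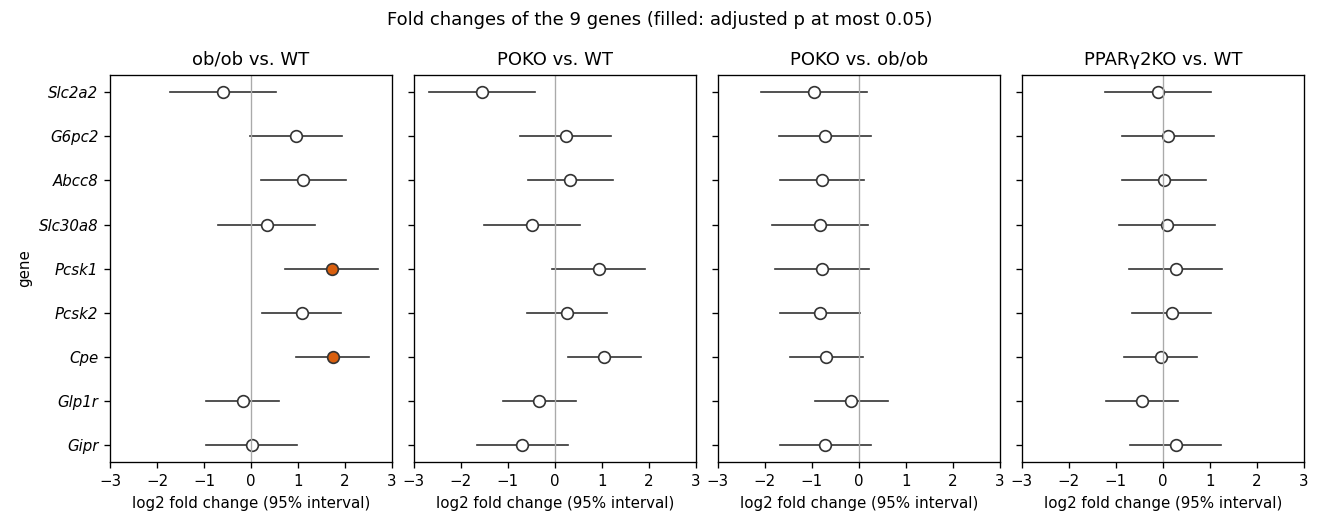
Log2 fold change (horizontal axis) of each of the 9 genes (vertical axis) in 4 comparisons, with the 95% interval of the limma fit as a line and filled points at an adjusted p of at most 0.05. The filled points are Cpe (1.74) and Pcsk1 (1.72) in ob/ob vs. WT, all 9 points lie left of 0 in POKO vs. ob/ob with lines that cross 0, and the points of PPARγ2KO vs. WT lie between -0.44 and 0.27.

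Loss of PPARγ2 was compared with its presence on the lean and on the obese background. In PPARγ2KO vs. WT 0 of the 9 genes passed the adjusted limit, as for all probes (0%), and 0 of the 9 stood at an unadjusted p under 0.05 (9.37% of all probes), with log2 fold changes from -0.44 (Glp1r) to 0.27 (Gipr). In POKO vs. ob/ob all 9 genes were lower, by a median of -0.79, beside 0.01 for all probes and 45.9% of probes lower. None of the 9 passed (0.00486% of all probes did) and none stood at an unadjusted p under 0.05 (9.28% of all probes), the smallest adjusted p being 0.536 for Pcsk2, and Glp1r showed only -0.16. The other probe of Cpe did stand there (-0.76, SE 0.31, unadjusted p = 0.0345, adjusted p = 0.531). The interaction, which asks whether PPARγ2 loss acts alike in obese and lean islets, is the POKO vs. ob/ob difference less the PPARγ2KO vs. WT difference. It was negative for 8 of the 9 genes, at a median of -0.86, beside 0.04 for all probes and 44% of probes lower. It passed for 0 of the 9 genes (0% of all probes) and stood at an unadjusted p under 0.05 for 0 (13.9% of all probes), Pcsk2 having the smallest adjusted p at 0.422.

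The comparisons across obesity and genotype gave the following counts. In POKO vs. WT 0 of the 9 passed the adjusted limit (0.194% of all probes), with Slc2a2 lower and Cpe higher at an unadjusted p under 0.05 (16.4% of all probes). Against PPARγ2KO, ob/ob gave 0 past the limit (0.00486% of all probes), and Cpe, Pcsk1, Abcc8 and Pcsk2 were higher at an unadjusted p under 0.05 (19.3% of all probes), with log2 fold changes of 1.78, 1.44, 1.098 and 0.89. In POKO vs. PPARγ2KO 0 passed (0.00971% of all probes), and Cpe was higher and Slc2a2 and Gipr lower at an unadjusted p under 0.05 (11.1% of all probes), by 1.09, -1.46 and -0.97. These comparisons share arrays with one another and are not independent.

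Much of the spread within a genotype was common to the 9 genes. WT replicate 1 was the lowest and WT replicate 3 the highest WT array for all 9 genes, and the mean of the 9 differed between these arrays by 1.41 on the log2 scale. The mean of the 9 ranged over 0.96 among PPARγ2KO arrays, 0.71 among ob/ob arrays and 0.40 among POKO arrays. After the genotype means were taken off, all 36 pairs of the 9 genes were positively correlated over the 12 arrays, with a median r of 0.82 and a range from 0.27 to 0.99, values that share the arrays, their scaling and the make-up of each pool. Over the raw values r ran from -0.15 (Cpe with Slc2a2) to 0.97 (Abcc8 with Pcsk1).

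Markers of the islet's cell types were read beside these values. Of 6 measured beta cell markers 1 rose in ob/ob vs. WT, at a list median of 0.09. Nkx6-1, a transcription factor of beta cells, gave 10.54, 10.93 and 11.79 in WT and rose in ob/ob (log2 fold change 1.09, adjusted p = 0.0397). The other markers did not pass, at 0.93 for the insulin gene Ins1 (adjusted p = 0.0614), which gave 17.07, 17.39 and 18.38 in WT, 0.14 for Pdx1, 0.037 for Ins2, -0.10 for Ucn3 and -1.13 for Mafa. Ins2 stood at the top of the scale, at 18.90 or 18.95 on every array, where scaling by quantiles leaves no room to differ. Of 12 acinar markers none passed, 7 being lower and 5 higher, with a median of -0.03. Ptf1a, a factor of exocrine acinar cells, had the widest change of them, at -1.82 (adjusted p = 0.0503), after 12.46, 11.64 and 10.92 in WT, whereas Bhlha15 gave 0.20. Of 7 duct markers 3 fell in ob/ob vs. WT, namely Krt19, a keratin of duct cells (-1.57, adjusted p = 0.0173), Cftr (-1.33, adjusted p = 0.0436) and Sox9 (-0.73, adjusted p = 0.0346), while Spp1 (0.72) and Krt7 (0.54) were higher without passing. The summed signal of the duct markers was 0.933 to 1.08 times the WT mean in WT and 0.846 to 1.12 times in PPARγ2KO. It was 0.562 to 0.845 times on the 2 ob/ob arrays with all spots and 0.682 to 1.01 times in POKO. Sums over the beta cell and acinar lists are not given, since they consist almost wholly of genes near the top of the scale.

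In POKO vs. ob/ob, where all 9 genes were lower, most markers of endocrine cells were lower too, without any passing the limit. All 6 beta cell markers were lower there (median -0.72), though Ins2, at the top of the scale, only by -0.018. All 3 delta cell markers (-0.62), both PP cell markers (-0.56) and 4 of 5 alpha cell markers (-0.27) were also lower. Of 7 duct markers 5 were higher (0.40). The part of the pools' cell make-up in the changes of the 9 genes was not tested.

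**Figure D3:**
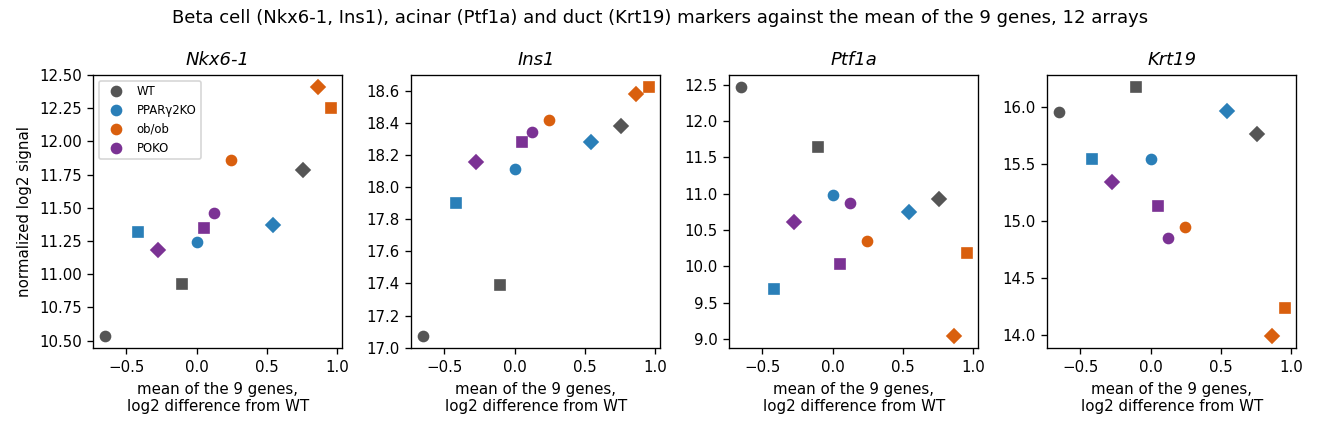
Normalized log2 signal of 4 cell type markers (vertical axis) against the mean of the 9 genes on the same array as a difference from the WT mean (horizontal axis, log2), with a point for each of the 12 arrays coloured by genotype and shaped by replicate. WT replicate 1 has the lowest Nkx6-1 (10.54) and Ins1 (17.07) and the highest Ptf1a (12.46), the 3 ob/ob arrays have the highest Nkx6-1 signals, and ob/ob replicates 2 and 3 have the lowest Krt19 (14.24 and 13.99).

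Transcripts of blood and vessel cells also differed between the pools. The summed signal of 6 endothelial markers was 0.600 to 1.52 times the WT mean in WT, 1.39 to 2.05 times in PPARγ2KO, 2.06 to 2.71 times in ob/ob and 1.63 to 2.27 times in POKO. That of 3 erythroid markers was 0.415 to 1.72 times in WT, 0.831 to 2.12 times in PPARγ2KO, 4.07 to 14.2 times in ob/ob and 2.81 to 7.40 times in POKO. The summed signal of 7 B cell markers was 11.4 to 34.1 times the WT mean in ob/ob and 10.4 to 31.0 times in POKO. Among the PPARγ2KO arrays it was high only on replicate 2 (25.4 times, beside 1.11 and 1.30 times). The sum of 8 T cell markers was 0.976 to 1.01 times the WT mean in WT and 0.613 to 3.47 times in PPARγ2KO. It was 2.49 to 6.67 times in ob/ob and 1.44 to 4.67 times in POKO. Of the 8 markers 7 were higher in ob/ob vs. WT and 1 lower. The lower one, Cd3e, gave 8.25, 8.33 and 8.08 in WT and 6.09, 6.65 and 7.46 in ob/ob. PPARγ2KO replicate 2 was also the lowest array of its genotype for 6 of the 9 genes, Glp1r and Gipr among them. Its Glp1r signal was the lowest of all 12 arrays. Whether these cells bear on the values of the 9 genes was not tested.

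To see which of the 9 genes changed unequally, each was expressed relative to the mean of all 9 on the same array and then as a difference from WT. This quantity was chosen after the values were seen, so it is a description with no test, and since the 9 differences of an array sum to 0, a rise of some fixes a fall of others. It does not depend on the scaling of an array by a constant. Cpe stood at 1.05 ± 0.12 in ob/ob and 1.08 ± 0.11 in POKO (mean ± SD, n = 3), with -0.09 ± 0.32 in PPARγ2KO and an SD of 0.05 in WT. Pcsk1 stood at 1.03 ± 0.14 in ob/ob and 0.96 ± 0.13 in POKO, with an SD of 0.26 in WT. The obese genotypes thus lay close together for both enzymes, and each of their arrays lay above every WT array.

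Slc2a2 lay on the other side of 0, at -1.28 ± 0.52 in ob/ob and -1.53 ± 0.28 in POKO, beside -0.14 ± 0.07 in PPARγ2KO and an SD of 0.05 in WT. Slc30a8 was at -0.35 ± 0.12 and -0.46 ± 0.12 in ob/ob and POKO, and Gipr at -0.67 ± 0.35 and -0.67 ± 0.21. Abcc8 stood at 0.43 ± 0.13 and 0.36 ± 0.11 and Pcsk2 at 0.39 ± 0.02 and 0.29 ± 0.10. G6pc2 stood at 0.26 ± 0.42 and 0.26 ± 0.06. Its arrays ran from -0.18 to 0.65 in ob/ob, 0.19 to 0.30 in POKO and -0.20 to 0.18 in WT. Glp1r was at -0.86 ± 0.43 in ob/ob, -0.30 ± 0.10 in POKO and -0.48 ± 0.33 in PPARγ2KO, so the mean of each mutant lay below WT (SD 0.38).

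**Figure D4:**
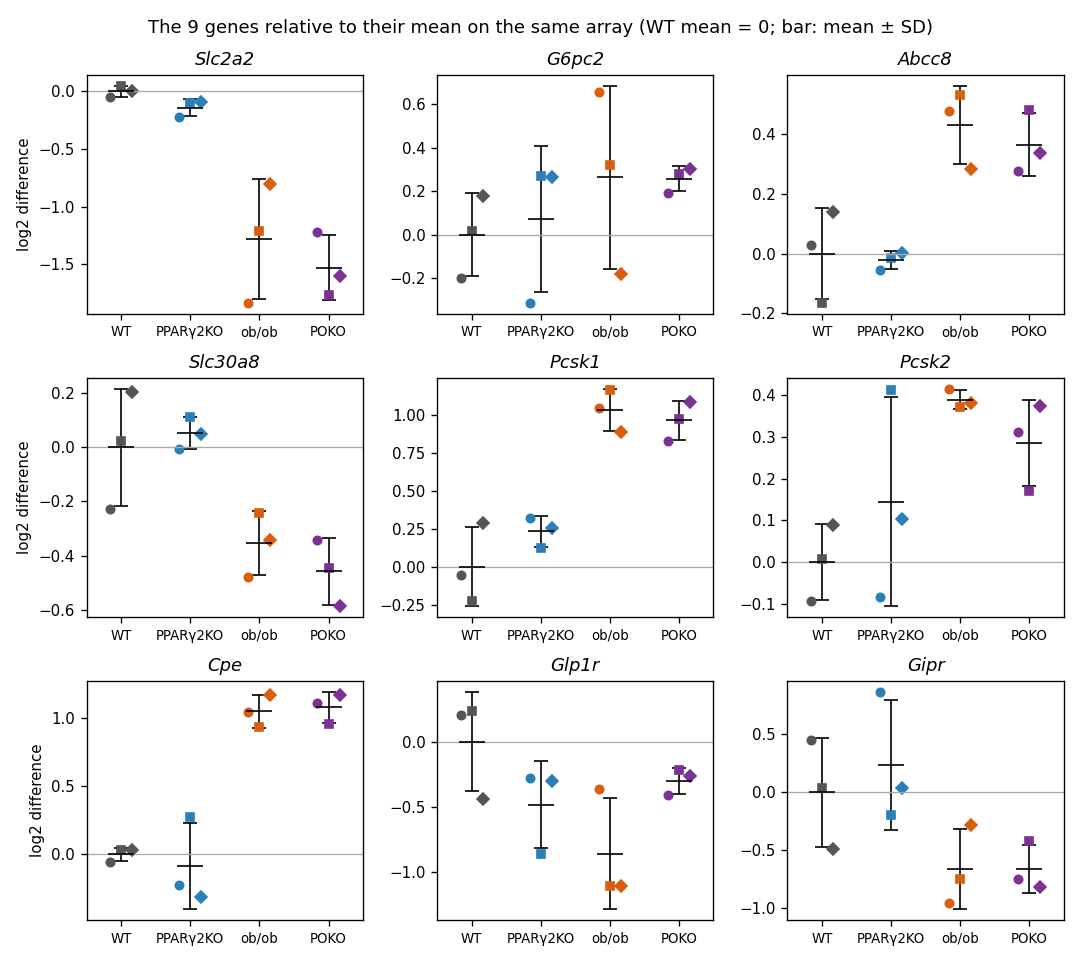
Each of the 9 genes relative to the mean of all 9 on the same array, as a log2 difference from the WT mean (vertical axis), by genotype (horizontal axis), with replicates 1, 2 and 3 as circle, square and diamond and the mean ± SD as a bar. Cpe and Pcsk1 lie near 1 on all ob/ob and POKO arrays and Slc2a2 between -1.83 and -0.80 in ob/ob and between -1.77 and -1.22 in POKO, while the WT and PPARγ2KO arrays lie near 0 in these panels.

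The contrast between carboxypeptidase E and GLUT2 was the widest. The log2 ratio of Cpe to Slc2a2, as a difference from its WT mean, was -0.01, -0.02 and 0.02 on the WT arrays, although each gene alone ranged over more than a doubling there. On the PPARγ2KO arrays it was 0.00, 0.38 and -0.22. It was 2.88, 2.15 and 1.98 on the ob/ob arrays and 2.33, 2.72 and 2.77 on the POKO arrays, 5.04-fold and 6.09-fold above WT at the mean. These ratios are of the brightest probes. By its other probe Slc2a2 gave 5.99, 6.94 and 7.36 in WT and 6.02, 5.66 and 7.16 in PPARγ2KO. Its log2 fold change in PPARγ2KO vs. WT was -0.48 by that probe, beside -0.10 by the brightest. Cpe gave 13.46, 14.09 and 14.96 on the same WT arrays, so its distance to that probe was not constant. The narrow spread of the ratio in WT thus holds for the brightest probes only. The contrast was smaller with normexp correction of the median signal, where Cpe stood at 1.74 in ob/ob and 1.03 in POKO against WT and Slc2a2 at -0.27 and -0.62. The pair was picked after its values were seen, as the widest contrast, so a wide ratio was built into that choice. The ratio carries no test and describes these arrays only. Whether the transcripts changed unequally was not tested, and the ratio does not tell which of them changed.

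Other genes of the same pathways were counted from lists of related genes, which leave out the 9. In ob/ob vs. WT 16 of the 91 measured genes of the 4 lists passed, beside 11.1% of all probes. That share is over all 41174 probes, dim ones among them, whereas each listed gene stands by its brightest probe. Of 26 measured genes of glucose entry and coupling, 3 rose and 2 fell in ob/ob vs. WT, and 21 did not pass (median log2 fold change 0.06, beside -0.06 over all named genes). The risers were Abcc9, a sister subunit of the KATP channel found mainly in vessels and muscle (1.76, adjusted p = 0.0470), Pfkm of glycolysis (1.16, adjusted p = 0.0405) and Mdh1 of the malate shuttle (0.57, adjusted p = 0.0305). Those that fell were Pdha1 of the pyruvate dehydrogenase complex (-0.57, adjusted p = 0.0217) and Gpd2 of the glycerol phosphate shuttle (-0.56, adjusted p = 0.0187). Markers of vessels moved with Abcc9 in ob/ob vs. WT, since all 6 endothelial markers were higher (median 1.22) and Cdh5 (1.17, adjusted p = 0.0250) and Plvap (1.71, adjusted p = 0.0430) rose, and their part in the value of Abcc9 was not tested. Kcnj11, the pore of the KATP channel, gave 0.54 for ob/ob against WT (SE 0.27, adjusted p = 0.213) and -0.14 for POKO (SE 0.27, adjusted p = 0.826).

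Of 21 measured genes of insulin maturation, 3 rose and 1 fell in ob/ob vs. WT, at a median of 0.38. Scg5, the chaperone 7B2 that PC2 needs to mature, rose by 1.73 on the log2 scale (adjusted p = 0.0277), from 11.49, 12.10 and 13.06 in WT to 13.49, 14.15 and 14.21 in ob/ob. Pam, which amidates peptide hormones, rose by 1.40 (adjusted p = 0.0335), and Cpm, a membrane carboxypeptidase, by 0.72 (adjusted p = 0.0276). Furin, a convertase of the general secretory route, fell by 0.55 on the log2 scale (adjusted p = 0.0348).

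Of 25 measured genes of incretin and cAMP signalling, 4 rose and 0 fell in ob/ob vs. WT, at a median of 0.37. These were Prkacb, a catalytic subunit of protein kinase A (1.07, adjusted p = 0.0381), the phosphodiesterase Pde4b (0.92, adjusted p = 0.0413), the regulatory subunit Prkar1a (0.61, adjusted p = 0.0379) and the transcription factor Crem (0.53, adjusted p = 0.0468). Of 19 measured genes of zinc handling, which include the zinc-binding metallothioneins Mt1 and Mt2 beside the transporters, 0 rose and 3 fell, at a median of -0.24. The 3 were the transporters Slc39a8 (-1.24, adjusted p = 0.0408), which brings zinc into the cell, and Slc30a7 (-0.61, adjusted p = 0.0497) and Slc30a6 (-0.61, adjusted p = 0.0282) of the secretory route. In the other comparisons 0 of the 91 genes of these 4 lists passed in limma, and the counts at an unadjusted p under 0.05 are set beside the share of all probes. They were 17 in POKO vs. WT (16.4% of all probes), 19 in POKO vs. ob/ob (9.28%), 7 in PPARγ2KO vs. WT (9.37%), 31 in ob/ob vs. PPARγ2KO (19.3%), 10 in POKO vs. PPARγ2KO (11.1%) and 16 in the interaction (13.9%).

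**Figure D5:**
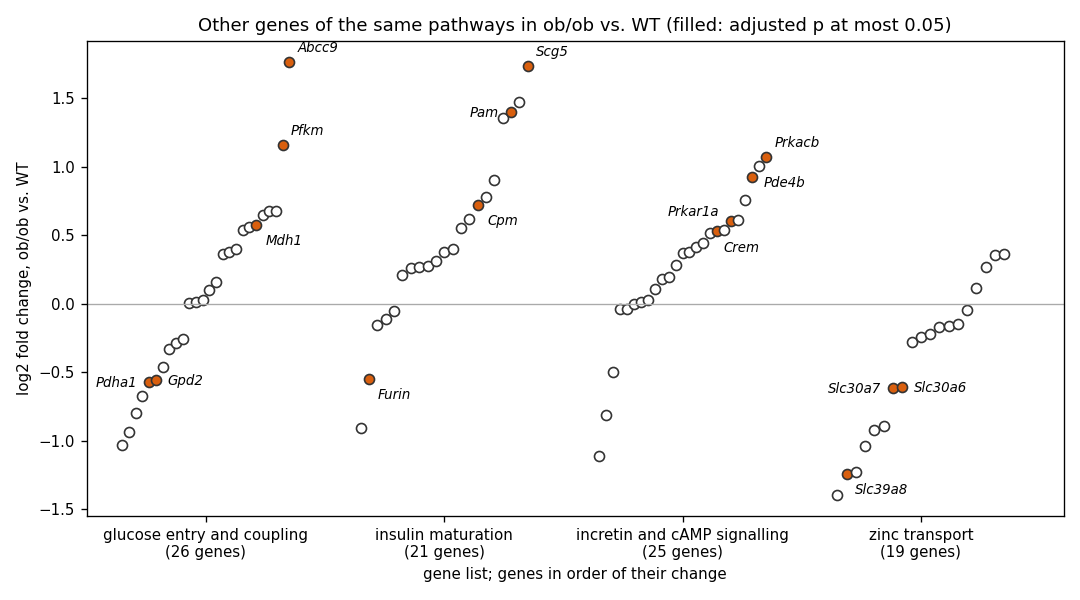
Log2 fold change in ob/ob vs. WT (vertical axis) of the measured genes of 4 pathway lists (horizontal axis, ordered within a list by their change), with filled points at an adjusted p of at most 0.05. Abcc9 (1.76) and Scg5 (1.73) lie highest, and the called zinc transporters Slc39a8, Slc30a7 and Slc30a6 lie below 0.

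The genes whose signal followed a member most closely over the 12 arrays were taken from 11683 named genes well above background on all arrays, by Pearson's r and as a description only. Cpe ran with Adra2a, an adrenergic receptor that restrains insulin release (r = 0.99, and 0.94 after the genotype means were taken off), Rtn2 (0.98 and 0.96) and Mettl9 (0.97 and 0.88). Pcsk1 ran with Filip1 (0.98 and 0.96), Wnt7b (0.98 and 0.95) and Hexa (0.98 and 0.96). Pcsk2 ran with Spcs2, a subunit of the signal peptidase (0.98 and 0.97), Pde4dip (0.98 and 0.97) and Emb (0.98 and 0.98). Among them Wnt7b, a secreted Wnt ligand, showed the widest change, at 2.03 for ob/ob and 0.92 for POKO against WT.

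Slc2a2 ran with Smpd2 (0.94 and 0.92), with Sytl4, the granuphilin of insulin granules (0.92 and 0.88), and with Ppp1r1a, an inhibitor of protein phosphatase 1 (0.91 and 0.98). In POKO vs. WT Sytl4 and Ppp1r1a showed log2 fold changes of -1.28 and -1.01, beside -1.56 for Slc2a2. G6pc2 ran with As3mt, Tmem263 and Gng12 (0.97 each), and Abcc8 with Dpysl2, Prrc2b and the calcium pump Atp2a3 (0.98 each). Slc30a8 ran with Cacnb2, a subunit of voltage-gated calcium channels (0.96), Fkbp1b (0.95) and Eml5 (0.94). For the receptors r was 0.92, 0.91 and 0.90 for Glp1r with Ogdh, Nudt3 and Pdxdc1 and 0.91, 0.89 and 0.89 for Gipr with Jmjd8, Synrg and Tpcn1. In each case the 12 points share the pools and their cell make-up.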

How the data were processed

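The deposited scanner files of 12 one-colour arrays were used. Per the file headers, Agilent Feature Extraction 10.1.1.1 gave the processed signal, a background-subtracted intensity without scaling between arrays. The authors' deposited value table, on the log2 scale after quantile normalization, served as an alternative. Of 45018 spots 1639 controls and, over all arrays, 919 outlier spots were left out. The signal was normalized by quantiles, put on the log2 scale and averaged by probe in R 4.3.3 with limma 3.58.1. A single fit (lmFit, eBayes) on all arrays with genotype as factor gave each comparison, with Benjamini-Hochberg over 41174 probes. Probes were named through RefSeq accessions (25097 probes), and each gene stands by its probe of highest mean signal. Pathway genes named are those at an adjusted p of at most 0.05, at most 5 a list and comparison, with Kcnj11 always. A gene that this rule also named is not reported here. For likeness the 3 highest r over 12 arrays are named. The members and lists were chosen with earlier results of these data known. Slides hold same-numbered replicates, per the file headers. Deviations of same-numbered arrays correlated between -0.13 and 0.18, with 4 of 18 pairs over 0.1, so a block for the replicate number was an alternative only. The scripts were tested on simulated data. The number of arrays limits the precision. No cell type was sorted, and RT-PCR of the study was not used here.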

Additional observations from a re-analysis of the deposited data

How the results depend on the processing

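The number of the 9 genes past the adjusted limit kept within 1.5 times its value in 64 recomputations, those that left out single arrays not counted, and moved in 5. Outside ob/ob vs. WT the number was 0 to begin with, so most of the 64 were counts of 0 that stayed at 0. For ob/ob vs. WT the number was 0 in a fit on only those arrays and 5 with array weights. The weights also gave 2 genes in POKO vs. WT (Slc2a2 and Cpe) and 2 in ob/ob vs. PPARγ2KO (Cpe and Pcsk1). The filter on dim probes, which kept 24292 probes, gave 1 gene (Cpe) in ob/ob vs. PPARγ2KO. With single arrays left out the count ran from 0 to 5 in ob/ob vs. WT and from 0 to 1 in ob/ob vs. PPARγ2KO, and was 0 throughout in the other comparisons. Where such a count moved, the cause was not tested. With the replicate block Cpe and Pcsk1 stayed past the limit in ob/ob vs. WT (adjusted p = 0.0281 and 0.0425), 2 genes as before, and the block moved no count in the other comparisons. Normexp correction of the mean signal was not run, because the files used hold the median signal.

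For ob/ob vs. WT the 75th percentile shift took the median over all probes from -0.076 to -0.19 on the log2 scale, a move of -0.11, and left Cpe at 1.44 and Pcsk1 at 1.51, both still past the limit. Small log2 fold changes turned in sign, each without passing before or after. With the 75th percentile shift these were Cpe in PPARγ2KO vs. WT (0.068) and G6pc2 (-0.10) and Pcsk2 (-0.12) in POKO vs. PPARγ2KO. With normexp of the median signal they were, in PPARγ2KO vs. WT, Slc30a8 (-0.0034), Abcc8 (-0.00062) and Cpe (0.017), and with array weights Cpe in that comparison (0.046). Averaging the probes of each gene turned Gipr in ob/ob vs. WT (-0.098), Abcc8 (-0.47) and Cpe (0.0096) in PPARγ2KO vs. WT, and Pcsk2 in POKO vs. WT (-0.051) and in POKO vs. PPARγ2KO (-0.083).

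With 1 array left out, further values crossed 0. For ob/ob vs. WT they ran from -0.11 to 0.81 for Slc30a8 and from -0.26 to 0.39 for Gipr. In PPARγ2KO vs. WT they ran from -0.45 to 0.28 for Slc2a2, -0.31 to 0.58 for G6pc2, -0.35 to 0.57 for Slc30a8, -0.29 to 0.47 for Abcc8, -0.023 to 0.72 for Gipr, -0.083 to 0.79 for Pcsk1, -0.19 to 0.61 for Pcsk2 and -0.40 to 0.35 for Cpe. In POKO vs. WT the ranges were -0.20 to 0.69 for G6pc2 and -0.12 to 0.68 for Pcsk2. Those of ob/ob vs. PPARγ2KO were -0.82 to 0.0017 for Slc2a2, -0.15 to 0.61 for Glp1r and -0.70 to 0.11 for Gipr. In POKO vs. PPARγ2KO they were -0.10 to 0.46 for G6pc2, -0.31 to 0.45 for Glp1r and -0.066 to 0.30 for Pcsk2, and in the interaction -0.14 to 0.62 for Glp1r.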
